A study of Mus musculus with 4 samples.

Results

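The cells described here are paraxial mesenchyme: 454 of 20836 cells that passed quality filters in single-cell RNA libraries from the mouse aorta-gonad-mesonephros (AGM) region at embryonic day 10.5. A cell was taken as a member when it had no UMI of Cdh5, fewer than 3 UMIs of Tubb3, and at least 1 UMI of at least 2 of the 5 genes Pax1, Foxd1, Meox1, Zic1 and Col2a1. UMIs (unique molecular identifiers) count captured RNA molecules. Cells with at least 1000 detected genes and under 10% mitochondrial UMIs passed the quality filters.

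Embryos lacking the microRNA miR-223 (mir-223 -/-, KO) gave 2 libraries and wild-type (WT) embryos of matched age gave 2. All cells had been sorted for the endothelial surface protein CD31 and against the blood cell protein CD45, and were profiled with the 10x Genomics 3' kit, version 3. The labels do not name the strain or sex, the way the deletion was made, or whether the libraries of a genotype came from separate embryos or litters. Each p-value below therefore sets a difference against library-to-library spread, some of which may be technical. A transcript of the miR-223 gene was not analysed here, so the genotype rests on the labels.

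Paraxial mesoderm flanks the neural tube and is cut into somites. The ventral part of each somite, the sclerotome, gives rise to vertebrae and ribs, responds to Sonic hedgehog from the notochord and floor plate, and is marked by the paired-box factors Pax1 and Pax9. The dorsal part, the dermomyotome, gives rise to muscle and dermis and is marked by Pax3. Prrx1 marks mesenchyme of the limb bud, the body wall and the head. A gate on CD31 is meant to leave such mesenchyme out of an endothelial sort.

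Some sequences place the results. The deleted microRNA is shown because the genotype contrast rests on it, with its seed (bases 2 to 8) in capitals. The promoters of Uncx and Pax9 are shown because these are the 2 genes outside the rule with the largest fitted difference in the lists of somite genes. The promoters run from 250 bases before to 50 bases after the RefSeq transcript start on build GRCm38.p6, and capitals mark TAATTA, a core recognised by many homeodomain proteins.
mmu-miR-223-3p, chrX:96242884-96242905, plus strand: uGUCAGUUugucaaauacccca
Uncx promoter, chr5:139543648-139543947, plus strand: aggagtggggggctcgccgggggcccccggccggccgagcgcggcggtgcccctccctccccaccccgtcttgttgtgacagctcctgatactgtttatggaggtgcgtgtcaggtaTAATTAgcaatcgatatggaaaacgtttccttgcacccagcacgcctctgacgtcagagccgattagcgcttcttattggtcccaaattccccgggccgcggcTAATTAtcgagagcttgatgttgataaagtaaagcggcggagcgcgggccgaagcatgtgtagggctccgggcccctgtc
Pax9 promoter, chr12:56695221-56695520, plus strand: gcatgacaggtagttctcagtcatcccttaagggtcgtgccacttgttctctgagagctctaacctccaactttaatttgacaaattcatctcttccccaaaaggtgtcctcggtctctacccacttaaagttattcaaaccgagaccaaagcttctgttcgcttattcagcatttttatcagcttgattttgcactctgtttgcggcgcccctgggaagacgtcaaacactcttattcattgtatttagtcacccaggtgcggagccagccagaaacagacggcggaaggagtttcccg
TAATTA reads the same on both strands. It occurred 2 times in the Uncx window and 0 times in the Pax9 window, and in 5.29% of the 32851 RefSeq promoters of this length. The Gli-type string GACCACCCA, searched on both strands, was in neither window and in 0.253% of all promoters. The Uncx window held 26 CG pairs and the Pax9 window 11, against a median of 7 over all promoters. Of 136 named genes, 99 had a promoter in the table. A match describes letters in the window and is not evidence of binding.

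The paraxial cells were 4.54% (exact binomial 95% interval 3.95 to 5.21%) and 1.33% (1.07 to 1.64%) of the kept cells in KO replicates 1 and 2, against 4.41% (3.62 to 5.31%) and 0.850% (0.656 to 1.08%) in WT replicates 1 and 2. These shares are 198 of 4357 cells, 86 of 6448, 105 of 2381 and 65 of 7650 in the same order. Replicate 1 of each genotype was high and replicate 2 low, and the genotypes overlapped. The mean share was 2.94% ± 2.27 in KO and 2.63% ± 2.52 in WT (SD, n = 2 each). The genotypes differed by 0.309 percentage points (exact two-sided permutation p = 0.667, where 2 libraries against 2 cannot go below 0.33). The difference ran from -1.47 to 2.09 points when 1 library was left out, negative without KO replicate 1 or without WT replicate 2. It was 0.0781 points without the members that qualified through Zic1 and Col2a1 alone, described below, and 0.00434 without members with a Sox2 UMI. The intervals cover counting error only.

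Set against Prrx1 mesenchyme alone, the share was more even. Prrx1 mesenchyme here means cells with a Prrx1 UMI, no UMI of Pax1, Foxd1 or Cdh5, fewer than 3 of Tubb3 and not members, 164 and 71 cells in KO and 93 and 95 in WT. Prrx1 itself does not separate the classes, since 48.5% and 50.0% of KO and 64.8% and 46.2% of WT members also had a Prrx1 UMI. Paraxial cells were 54.7% and 54.8% of both classes together in the KO libraries, against 53.0% and 40.6% in the WT libraries. The sort sets how many mesenchymal cells enter a library, so these shares describe what passed the gate and not the embryo.

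Median depth of the paraxial cells was 20815.5 and 14913 UMIs per cell in KO and 24697 and 15604 in WT. It was 20316.5, 18217, 23982 and 15838 in Prrx1 cells of the same libraries. The libraries came from 3917 to 11186 barcodes each. They shared 3 to 9 barcodes pair by pair, and doublet calling against simulated doublets marked 4 of the 454 members, which were kept. Members with a UMI of Xist, the RNA that coats the inactive X chromosome of female cells, were 0 of 198 in KO replicate 1, which allows up to 1.52%. In the other 3 libraries such members were 30 of 86 in KO replicate 2, 52 of 105 in WT replicate 1 and 21 of 65 in WT replicate 2. The libraries therefore differ in Xist within the KO genotype, and the part of this in any genotype difference was not tested.

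The values that chose the members are given as a description. Col2a1, the main cartilage collagen, was detected in 85.4% and 80.2% of KO members and 92.4% and 84.6% of WT members. Foxd1, a forkhead factor of somitic and kidney stroma, was detected in 76.8% and 69.8% in KO and 67.6% and 73.8% in WT. Meox1, a homeobox factor of early somites, was detected in 70.2% and 54.7% in KO and 61.0% and 52.3% in WT. Zic1, a zinc-finger factor of dorsal neural tube and somite, and Pax1 were the least frequent, at 37.1 to 58.1% and 40.7 to 52.3% over the 4 libraries. In Cdh5-positive cells, which are not meant to express these genes, Pax1 was detected in 4.82% and 2.71% in KO and 5.42% and 2.33% in WT, at median depths of 19247 to 31759 UMIs. Cells without Cdh5 that had at least 2 of the germ cell genes Dppa3, Pou5f1, Dnd1 and Nanos3 had a Pax1 UMI in 0 of 234 cells, which allows a share of up to 1.28%.

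At the threshold of the rule, 65, 31, 45 and 24 members of KO replicates 1 and 2 and WT replicates 1 and 2 had exactly 2 of the 5 markers. Just outside it, 138, 70, 82 and 70 cells in the same order had 1 marker. A further 40, 18, 28 and 17 cells met the marker count but had 1 Cdh5 UMI, and 10, 3, 7 and 4 had 3 or more Tubb3 UMIs. The commonest combination was all 5 markers, in 64 members (14.1%), followed by Pax1, Foxd1, Meox1 and Col2a1 together in 59. Pax1 and Foxd1 were both detected in 84, 26, 38 and 26 members, Pax1 without Foxd1 in 10, 9, 11 and 8, and Foxd1 without Pax1 in 68, 34, 33 and 22.

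**Figure D1:**
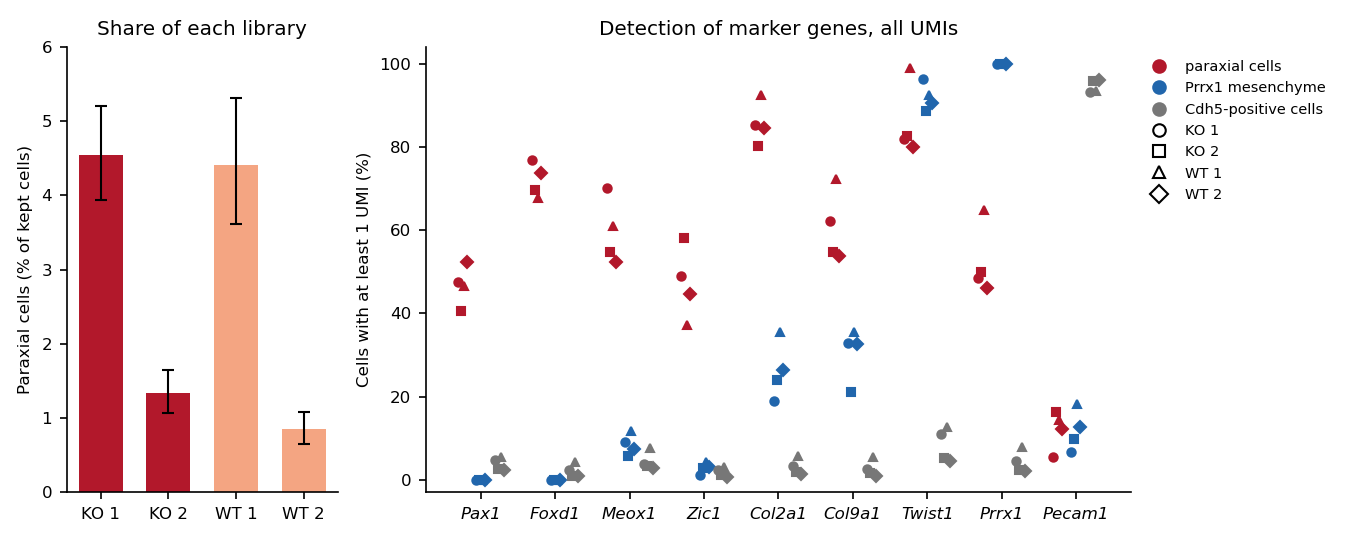
Left, the paraxial share of kept cells in each library with exact 95% binomial intervals. Right, the percentage of cells with at least 1 UMI of each gene, with 1 symbol per library, in paraxial cells, Prrx1 mesenchyme and Cdh5-positive cells. Replicate 1 of each genotype is above 4% and replicate 2 below 2%, and Col9a1, which the rule does not use, is detected in 53.8 to 72.4% of paraxial cells.

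Of the markers outside the rule, Col9a1, a chain of cartilage collagen IX, was detected in 62.1% and 54.7% of KO and 72.4% and 53.8% of WT paraxial cells. It was detected in 32.9% and 21.1% of KO and 35.5% and 32.6% of WT Prrx1 cells. With every cell thinned to 5000 UMIs, its detection was 35.5% and 38.6% in KO and 40.0% and 31.1% in WT paraxial cells, against 12.8% and 6.15% in KO and 11.0% and 13.8% in WT Prrx1 cells. Paraxial cells were higher in every library when counted at equal depth, although the members were chosen at full depth. Of members deep enough to thin, 69.5% and 66.3% in KO and 60.0% and 73.8% in WT still met the rule afterwards. The sclerotome factors Pax9 and Foxc2 were detected in a minority of members, Pax9 in 25.6 to 39.4% and Foxc2 in 33.7 to 41.9% over the 4 libraries. Twist1, a bHLH factor of mesenchyme at large, was detected in 80.0 to 99.0% of paraxial and 88.7 to 96.3% of Prrx1 cells and does not set them apart. Pecam1, which encodes CD31 itself, was detected in 5.56% and 16.3% of KO and 14.3% and 12.3% of WT paraxial cells, against 93.1% and 95.8% of KO and 93.3% and 96.0% of WT Cdh5-positive cells. The members thus had little RNA of the protein they were sorted on.

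One set of members went against the label. The 35 cells that qualified through Zic1 and Col2a1 alone (20, 9, 2 and 4 in the 4 libraries) had Sox2, a factor of neural progenitors, in 28 of 35 cells (80.0%, exact interval 63.1 to 91.6%), against 32 of the 419 other members (7.64%, 5.28 to 10.6%). Pax3 was in 27 of the 35 cells and in 39 of the 419. Pax6, another neural tube factor, was in 15 of the 35 and 13 of the 419. In the other direction, Twist1 was in 7 of the 35 cells against 382 of the 419 (91.2%), Foxc2 in 1 against 180, Col9a1 in 4 against 277, and Pax9 in 0 of 35, which allows up to 8.57%, against 157 of 419 (37.5%). The Sox2-positive cells of this set were all 20 of KO replicate 1 and 4 of 9 from KO replicate 2, against 0 of 2 in WT replicate 1 and 4 of 4 in WT replicate 2. These 35 cells are called here by their rule, and results of single genes that change with them are given with and without them.

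Compared with Prrx1 mesenchyme, paraxial cells were higher in many factors of the sclerotome and somite and lower in many factors of limb and lateral plate. The classes were picked by somite markers and by Prrx1, so these directions are given as a description. UMIs were summed per library and class and compared with edgeR's quasi-likelihood test with library as a block. The genes that define the classes (Cdh5, Pax1, Foxd1, Meox1, Zic1, Col2a1, Tubb3 and Prrx1) stayed in the fit but are left out of the lists below. The other genes did not enter the rule, but the rule was proposed with clusters of these same cells in view, so the tests measure how a difference stands against the spread between libraries and give no independent support for the name. Of 9550 genes, 577 (6.04%) were higher and 385 (4.03%) lower in paraxial cells at an adjusted p under 0.05, 10.1% in either direction. Levels are given as CPM, counts of a gene per 1000000 UMIs of the class in that library.

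Among 19 sclerotome and somite factors outside the rule, 16 could be tested, 10 were higher and 0 lower, with a median log2 fold of 1.33 against -0.0025 over all genes tested. Uncx, a homeobox factor of the posterior part of each sclerotome, had 57.4 and 38.6 CPM in KO and 59.4 and 53.0 in WT paraxial cells, against 0.588 and 1.57 in KO and 0.399 and 0 in WT Prrx1 cells (log2 fold 6.43 ± 0.295 SE, edgeR adjusted p = 4.00e-12). Pax9, the partner of Pax1 in sclerotome, had 46.2 and 40.7 in KO and 41.0 and 45.1 in WT paraxial cells, against 0.588 and 0.784 in KO and 0.399 and 0 in WT Prrx1 cells (log2 fold 6.42 ± 0.303, edgeR adjusted p = 6.15e-12). For both genes the lowest paraxial library was far above the highest Prrx1 library. The Prrx1 cells held 5 Uncx and 4 Pax9 UMIs over all 4 libraries, so the counting intervals of the ratio are wide, 41.0 to 298 for Uncx and 37.4 to 355 for Pax9.

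The forkhead factors of paraxial mesoderm moved the same way. Foxc2 had 40.9 and 38.6 CPM in KO and 35.1 and 32.1 in WT paraxial cells, against 1.47 and 4.71 in KO and 1.60 and 2.46 in WT Prrx1 cells (log2 fold 4.04 ± 0.251, edgeR adjusted p = 7.03e-10). Foxc1 had 79.7 and 107 in KO and 85.5 and 91.2 in WT paraxial cells, against 5.88 and 12.5 in KO and 6.79 and 14.8 in WT Prrx1 cells (log2 fold 3.29 ± 0.157). Foxd2 was also higher, with a log2 fold of 3.67 ± 0.507. Tcf15 (paraxis), needed for somites to become epithelial, had 138 and 115 in KO and 136 and 108 in WT paraxial cells, against 23.8 to 37.6 in Prrx1 cells (log2 fold 2.03 ± 0.132). The chondrogenic SOX trio differed less: Sox9 had a log2 fold of 1.01 ± 0.0935, Sox6 of 0.80 ± 0.223 and Sox5 of 0.76 ± 0.147, all past the test. Ebf3 was higher as well (log2 fold 1.36 ± 0.275). Meox2 (1.30), Ebf1 (1.54), Tbx18 (-0.51) and Zic2 (0.56) did not pass, and Twist1 had 330 to 414 CPM in paraxial and 371 to 483 in Prrx1 cells. Nkx3-2 and Bmper were among those too low to test.

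**Figure D2:**
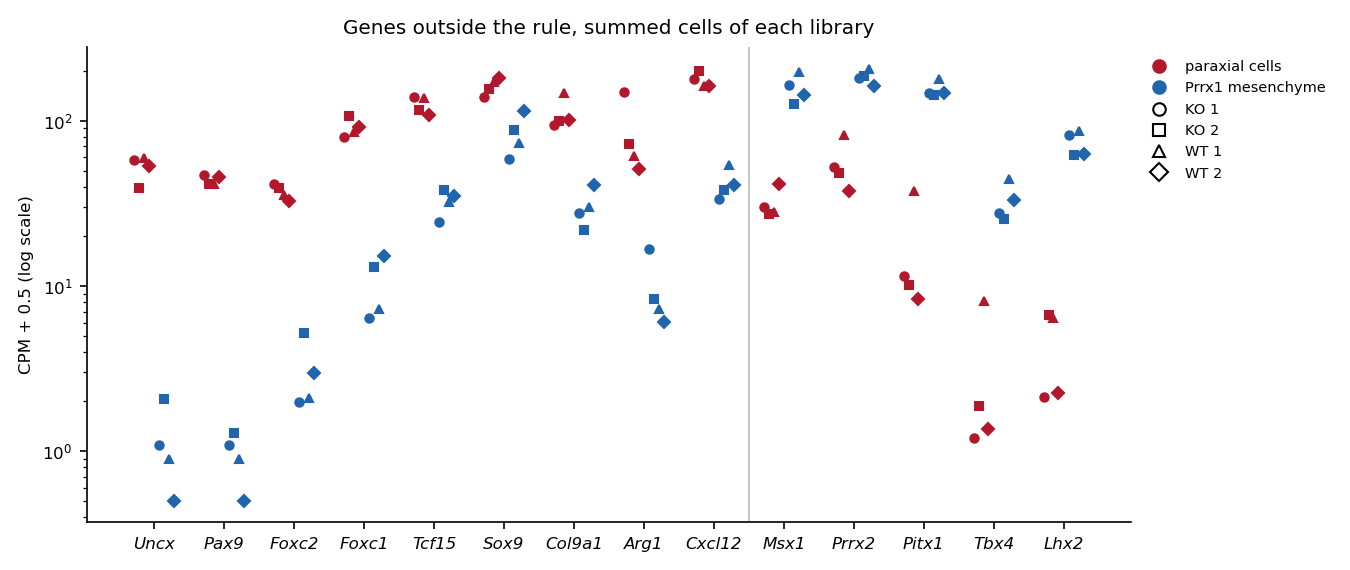
CPM (plus 0.5, log scale) in the summed paraxial cells and the summed Prrx1 mesenchyme of each library, with 1 symbol per library. The 9 genes left of the line are higher and the 5 right of it lower in paraxial cells of all 4 libraries.

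Of the 17 cartilage matrix genes outside the rule only 4 could be tested, 3 of them were higher and 0 lower. Col9a1 had 94.1 and 98.6 CPM in KO and 147 and 101 in WT paraxial cells, against 27.0 and 21.2 in KO and 29.6 and 40.6 in WT Prrx1 cells (log2 fold 1.89 ± 0.137, edgeR adjusted p = 3.45e-07). Col11a1, a chain of cartilage collagen XI, had a log2 fold of 1.34 ± 0.145, and Wwp2, a ubiquitin ligase that hosts a cartilage microRNA, of 0.80 ± 0.157. Late cartilage genes such as Acan, the main cartilage proteoglycan, at 0.689 to 1.74 CPM in paraxial cells, were too low to test. Of 24 genes of fibrillar and basement membrane matrix, 22 were tested, 8 higher and 1 lower. Among them Fbn2, a microfibril protein, had 178 to 206 in paraxial and 104 to 128 in Prrx1 cells (log2 fold 0.72 ± 0.0712), Col26a1 a log2 fold of 0.74 ± 0.0788, and Col5a2 was lower (-0.83 ± 0.175).

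Among 18 dermomyotome and muscle genes, 9 were tested, 2 were higher and 0 lower. Pax3 had 45.5 and 32.4 CPM in KO and 5.21 and 33.9 in WT paraxial cells, against 3.53 and 5.49 in KO and 0.399 and 4.30 in WT Prrx1 cells (log2 fold 3.22 ± 0.247, edgeR adjusted p = 1.95e-08). WT replicate 1 was low in both classes. The Pax3 difference was smaller without the 35 cells chosen by Zic1 and Col2a1 alone (2.46) and without all Sox2-positive members (1.81), and passed the test in both. Actc1, cardiac actin, was the other gene, and its level lay mostly in a few KO cells described below. The determination factors of muscle, Myf5, Myf6, Myod1 and Myog, were too low to test in this comparison.

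Limb and lateral plate factors stood the other way. Of 26 outside the rule, 22 were tested, 11 were lower and 1, Foxf2, a forkhead target of hedgehog signalling, was higher. The median log2 fold was -1.93. Tbx4, the hindlimb T-box factor, had 0.697 and 1.38 CPM in KO and 7.65 and 0.868 in WT paraxial cells, against 27.0 and 25.1 in KO and 43.9 and 32.6 in WT Prrx1 cells (log2 fold -3.55 ± 0.36, edgeR adjusted p = 8.58e-05). Pitx1, a hindlimb homeobox factor, had 10.9 and 9.65 in KO and 37.2 and 7.81 in WT paraxial cells, against 146 and 144 in KO and 178 and 147 in WT Prrx1 cells (-3.19 ± 0.390, edgeR adjusted p = 0.0289). For both, WT replicate 1 was the highest paraxial library. Msx1, a homeobox factor of limb and dorsal midline, had 26.9 to 40.8 in paraxial and 126 to 197 in Prrx1 cells (-2.43 ± 0.128). Lmx1b, a factor of dorsal limb (-2.53 ± 0.316), Tbx5, of the forelimb (-2.25 ± 0.347), and Prrx2 (-1.74 ± 0.105) were lower too. Hand2, of posterior limb and heart, had 2.6 to 22.9 in paraxial and 74.5 to 104 in Prrx1 cells but did not pass (-3.41 ± 0.587, edgeR adjusted p = 0.0689).

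Beyond the lists, the largest differences with enough UMIs included Lhx2, a LIM homeobox factor of limb mesenchyme. It had 1.63 and 6.20 CPM in KO and 5.91 and 1.74 in WT paraxial cells, against 81.7 and 61.2 in KO and 86.7 and 62.7 in WT Prrx1 cells (log2 fold -4.41 ± 0.257, edgeR adjusted p = 4.56e-07). The noncoding genes Gm34030 (-3.94 ± 0.396) and 5033428I22Rik (-3.07 ± 0.357) were lower as well. They lie on opposite strands of 1 locus, and reads of such pairs cannot be told apart where counting by strand is not stated. Nonagouti (a, -3.46 ± 0.268), a secreted antagonist of melanocortin receptors, was also lower. On the higher side, vitronectin (Vtn), a plasma and matrix adhesion protein, had 240 UMIs in paraxial and 3 in Prrx1 cells, a ratio of 72.0 (counting interval 24.4 to 352). Pou3f2, a POU factor of neural progenitors, had 112 against 3 (ratio 33.6, 11.2 to 165) and fell under the count filter without the 35 cells. Tbx1, a T-box factor of pharyngeal and head mesoderm, had 11.6 and 17.2 CPM in KO and 17.0 and 11.3 in WT paraxial cells, against 0 and 0 in KO and 2.80 and 0.615 in WT Prrx1 cells (log2 fold 3.88 ± 0.484). Zic4 and AI646519 had large differences too, but they overlap the rule genes Zic1 and Pax1 on the opposite strand and are not independent of the rule.

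Arg1, arginase 1 of the urea cycle and of macrophages, was among the genes highest in paraxial cells relative to all other kept cells. It had 149 and 71.7 CPM in KO and 60.5 and 50.4 in WT paraxial cells, against 16.2 and 7.84 in KO and 6.79 and 5.53 in WT Prrx1 cells (log2 fold 3.17 ± 0.130, edgeR adjusted p = 7.82e-13). KO replicate 1 was the highest library in both classes. The 12 genes of the blood and macrophage list summed to 8.13 and 1342 CPM in KO and 17.4 and 150 in WT paraxial cells, against 5.88 and 72.2 in KO and 56.7 and 13.5 in WT Prrx1 cells. In the paraxial cells 5 of the 12 were at 0 (Ptprc, Csf1r, Cx3cr1, Adgre1 and Cd52). The part of such cells in the Arg1 level was not tested.

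Hox genes, which set position along the body axis in the order of their paralogue groups, divided by group. Of 38 genes, 31 were tested, 19 were higher and 9 lower in paraxial cells. In groups 1 to 8, 17 of 18 tested genes were higher and 0 lower, with a median log2 fold of 1.59. Their summed level was 807 and 920 CPM in KO and 823 and 643 in WT paraxial cells, against 292 and 304 in KO and 264 and 271 in WT Prrx1 cells. In groups 10 to 13, 8 of 9 tested genes were lower and 0 higher, with a median of -2.03. Their sum was 182 and 143 in KO and 283 and 354 in WT paraxial cells, against 481 and 638 in KO and 731 and 747 in WT Prrx1 cells. Neither sum overlapped between the classes. The sum of groups 10 to 13 includes Hoxb13 and Hoxc13, which were not tested and stood the other way. They had 38.2 and 21.7 CPM in paraxial cells of WT replicate 2, at most 2.07 in the other libraries, and 0 in Prrx1 cells.

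Hoxb8 and Hoxa13 show the 2 directions. Hoxb8 had 53.4 and 45.5 CPM in KO and 45.9 and 34.7 in WT paraxial cells, against 15.3 and 3.92 in KO and 6.79 and 10.5 in WT Prrx1 cells (log2 fold 2.20 ± 0.206, edgeR adjusted p = 2.40e-06). Hoxd1, at 4.88 to 9.65 in paraxial cells, had the highest log2 fold of the tested Hox genes, 2.64 ± 0.475. Hoxa13, of the distal limb and the body's posterior end, had 0.697 and 0.689 in KO and 1.39 and 0.868 in WT paraxial cells, against 9.70 and 24.3 in KO and 29.6 and 25.8 in WT Prrx1 cells (-4.35 ± 0.318, edgeR adjusted p = 9.66e-09). Group 9 was divided: Hoxb9 (1.75 ± 0.191) and Hoxc9 (0.88 ± 0.108) were higher, Hoxa9 (-1.0 ± 0.11) was lower, and Hoxd9 (-0.84 ± 0.241) did not pass. Hoxc10 had 71.0 to 165 in paraxial and 97.3 to 169 in Prrx1 cells and did not pass (-0.25 ± 0.0917). Several Hox genes overlap a neighbour in the annotation, Hoxc5 among them, and their reads may be divided between genes.

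**Figure D3:**
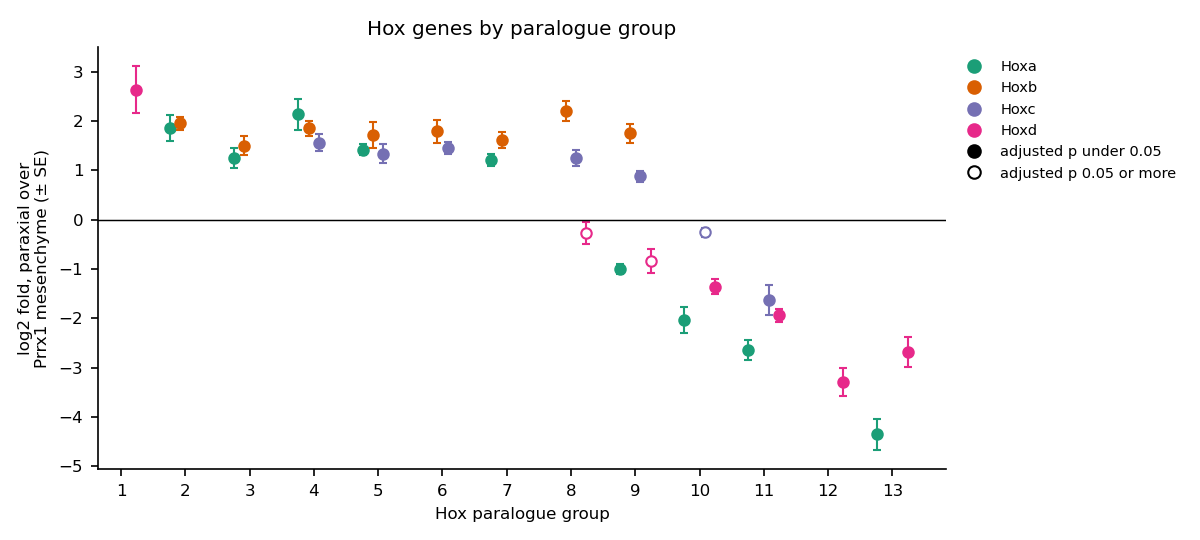
log2 fold of each tested Hox gene, paraxial cells over Prrx1 mesenchyme, by paralogue group and cluster, with SE derived from edgeR's F statistic. Filled points passed an adjusted p of 0.05. Groups 1 to 8 lie above 0 except Hoxd8, and groups 10 to 13 lie below it.

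Signalling genes divided within each pathway. Of 18 hedgehog genes 13 were tested. Ptch1, the receptor that hedgehog signalling induces, had 77.4 and 66.9 CPM in KO and 62.2 and 59.9 in WT paraxial cells, against 32.9 and 39.2 in KO and 54.7 and 39.4 in WT Prrx1 cells (log2 fold 0.70 ± 0.152, edgeR adjusted p = 0.0110). The coreceptor Boc was higher (0.95 ± 0.228), while the coreceptor Gas1 (-0.41 ± 0.0696) and the repressor Gli3 (-0.35 ± 0.104) were lower. Against a Prrx1 class with no condition on Cdh5 or Tubb3, Gas1 (0.22) and Gli3 (0.10) turned direction. Gli1, another induced gene, did not pass (0.35). Of 18 BMP genes tested, 3 were higher and 5 lower. The antagonist Grem1 had 3.13 to 4.34 in paraxial and 18.8 to 45.5 in Prrx1 cells (-2.92 ± 0.230), and the ligand Bmp4 was lower (-1.14 ± 0.168), while the receptor Bmpr1b (1.49 ± 0.276) and the ligand Bmp5 (1.21 ± 0.272) were higher.

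Of 23 Wnt genes tested, 3 were higher and 5 lower. Wnt4, a ligand of kidney tubule, neural tube and joint, had 32.1 and 21.4 CPM in KO and 18.1 and 27.8 in WT paraxial cells, against 4.41 and 7.84 in KO and 2.40 and 0.615 in WT Prrx1 cells (log2 fold 2.77 ± 0.318, edgeR adjusted p = 3.04e-05), and 1.83 without the 35 cells. The secreted inhibitors Dkk2 (-1.37 ± 0.352), Wif1 (-1.09 ± 0.282) and Frzb (-0.96 ± 0.164) and the factor Tcf7 (-1.41 ± 0.215) were lower. Of 12 FGF and PDGF genes tested, Fgfr2 was higher (0.59 ± 0.164, and 0.48 with edgeR adjusted p = 0.0817 without the 35 cells), and the limb ligand Fgf10 was lower (-1.82 ± 0.359) with 1.74 to 3.48 in paraxial and 6.15 to 11.5 in Prrx1 cells.

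Retinoic acid genes differed in both directions, with 6 of 13 tested higher and 3 lower. Aldh1a2, the main enzyme that makes retinoic acid in the embryo, had 97.6 and 42.1 CPM in KO and 51.8 and 69.5 in WT paraxial cells, against 38.2 and 22.0 in KO and 24.0 and 24.6 in WT Prrx1 cells (log2 fold 1.24 ± 0.117, edgeR adjusted p = 2.73e-07). Rdh10, which makes its precursor, was higher (1.42 ± 0.211). Cyp26b1, which degrades retinoic acid, had 2.32 to 6.61 in paraxial and 8.82 to 56.0 in Prrx1 cells (-2.98 ± 0.227), and the binding protein Crabp2 was lower (-0.98 ± 0.0729).

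Of 10 tested ligands that act on vessels, 3 were higher and 0 lower. The chemokine Cxcl12 had 180 and 201 CPM in KO and 162 and 162 in WT paraxial cells, against 32.9 and 37.6 in KO and 53.5 and 40.6 in WT Prrx1 cells (log2 fold 2.08 ± 0.135, edgeR adjusted p = 3.81e-06). Angpt1, the ligand of the endothelial receptor Tek (1.43 ± 0.243), and Tgfb2 (0.69 ± 0.128) were higher, whereas Vegfa (-0.25) and Kitl (0.55) did not pass. Of 23 guidance genes tested, 9 were higher and 3 lower. Sema3d had 9.73 to 16.5 in paraxial and 0.588 to 2.35 in Prrx1 cells (3.37 ± 0.378). Sema3c (1.59 ± 0.264), Spon1 (1.61 ± 0.275), a somite and floor plate matrix protein, and Ntn1 (1.83 ± 0.315) were higher as well, and the receptor Robo2 was lower (-1.27 ± 0.184).

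Genes of other cell types were checked in the same fit. Among 7 tested neural progenitor and neuron genes, 4 were higher and 1 lower. Hes5, a Notch target of neural progenitors, had 41.8 and 19.3 CPM in KO and 9.39 and 13 in WT paraxial cells, against 1.76 and 0 in KO and 1.20 and 0 in WT Prrx1 cells (log2 fold 4.46 ± 0.374), and fell under the count filter without the 35 cells. Nes, an intermediate filament, was 1.77 ± 0.132, and 1.63 without the 35 cells. The summed level of all 18 genes of that list was 365 and 398 in KO and 202 and 326 in WT paraxial cells, against 101 and 118 in KO and 111 and 96.6 in WT Prrx1 cells, and none was at 0 in the paraxial cells. Among 10 endothelial genes tested outside the rule, Ramp2 (0.95 ± 0.125) and Plvap (0.68 ± 0.189) were higher and 0 lower. Against a Prrx1 class with no condition on Cdh5 or Tubb3, both turned direction (Ramp2 -2.72, Plvap -3.49). The summed endothelial list was 192 and 237 in KO and 202 and 262 in WT paraxial cells, against 175 and 177 in KO and 181 and 178 in WT Prrx1 cells, with Cdh5 at 0 by the rule. Immediate early genes, which rise during cell dissociation, were higher for 10 of 21 tested and lower for 0. Jun had 657 and 703 in KO and 608 and 366 in WT paraxial cells, against 319 and 437 in KO and 277 and 247 in WT Prrx1 cells (0.88 ± 0.0968). The part of these neural, endothelial and immediate early genes in the other differences was not tested.

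Cell cycle genes differed little. Of 24 S phase genes 1 was higher and 4 lower, the largest being Dut (-0.41 ± 0.0477), and of 24 genes of G2 and mitosis 1 was higher, Ube2c (0.19 ± 0.0457, and 0.15 with edgeR adjusted p = 0.0650 without the 35 cells), and 0 lower.

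Against all other kept cells, most of them endothelial, 3135 of 14481 genes (21.6%) were higher and 4184 (28.9%) lower in paraxial cells, so a single list is read against a high background. All 15 endothelial genes outside the rule were lower, among them Cldn5, a tight junction protein, at 7.58 to 13.2 CPM in paraxial cells and 593 to 677 in the other cells (log2 fold -6.00 ± 0.0899). Members were picked without Cdh5, so low endothelial RNA follows from the choice of groups and is given as a description. Of 17 tested sclerotome and somite factors, 16 were higher and 0 lower. Of 17 dermomyotome and muscle genes, 10 were higher and 0 lower, including Dmrt2, a factor of the dermomyotome, at 7.65 to 16.5 in paraxial and 0.425 to 0.932 in the other cells (3.91 ± 0.436). Other lists rose too, so a rise here is not particular to somite genes. Limb and lateral plate factors had 15 higher and 1 lower of 26 tested, and Wnt genes 21 and 2 of 28. Kidney genes had 11 higher and 1 lower of 18, neural crest genes 6 and 1 of 10, and neural genes 6 and 2 of 15. Hox genes had 31 higher and 1 lower of 36. Hapln1, a link protein of hyaluronan that is on the cartilage list, was lower, with 8.68 to 11.9 in paraxial and 155 to 238 in the other cells (-4.37 ± 0.105). The neuropeptide gene Nts and the water channel Aqp1 had 0 UMIs in paraxial cells of all 4 libraries, which on a floor of 3 counts over the group makes them at least 42.4-fold and 25.7-fold lower.

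Within the paraxial cells, those with a Pax1 UMI were compared with those without one, 94 and 35 against 104 and 51 cells in KO and 49 and 34 against 56 and 31 in WT. A comparison of Pax1-positive Foxd1-negative with Foxd1-positive Pax1-negative cells had been planned, but only 9 and 8 cells of the first kind were in KO replicate 2 and WT replicate 2, so the wider comparison was chosen after the cell counts were seen. Of 8035 genes, 98 (1.22%) were higher and 121 (1.51%) lower in Pax1-positive cells, 2.73% in either direction. A cell without a Pax1 UMI may still express Pax1 below detection.

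Pax1-positive cells had more of the sclerotome factors. Of 14 tested outside the rule, 9 were higher and 0 lower, with a median log2 fold of 0.87. Pax9 had 80.0 and 93.5 CPM in KO and 84.3 and 87.6 in WT Pax1-positive cells, against 15.9 and 4.64 in KO and 5.69 and 5.06 in WT Pax1-negative cells (log2 fold 3.17 ± 0.245, edgeR adjusted p = 3.49e-07). Uncx had 98.7 and 76.5 in KO and 103 and 76.9 in WT Pax1-positive cells, against 20.3 and 12.8 in KO and 24.0 and 30.4 in WT Pax1-negative cells (2.14 ± 0.161). Neither gene overlapped between the subgroups. Tcf15 (1.34 ± 0.156), Meox2 (1.14 ± 0.138), a homeobox factor of somites, and Sox9 (1.10 ± 0.130) were higher too. So were the matrix genes Wwp2 (1.59 ± 0.216), Col11a1 (0.97 ± 0.140) and Col9a1 (0.77 ± 0.108), the hedgehog receptor Ptch1 (0.84 ± 0.138) and Cxcl12 (1.12 ± 0.0986).

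Pcp4, a calmodulin binding protein, had the largest difference outside the lists, apart from AI646519, which overlaps Pax1 on the opposite strand. Pcp4 had 154 and 32.3 CPM in KO and 28.6 and 41.1 in WT Pax1-positive cells, against 15.0 and 4.64 in KO and 0 and 1.69 in WT Pax1-negative cells (3.57 ± 0.254, edgeR adjusted p = 3.28e-10). KO replicate 1 stood above the other libraries in both subgroups. Adamtsl1 (2.37 ± 0.313), a secreted matrix protein, and Foxf2 (1.72 ± 0.318) were also higher.

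Several dermomyotome genes were lower in Pax1-positive cells, and few limb or neural genes passed. Of 7 dermomyotome and muscle genes tested, 4 were lower in Pax1-positive cells and 0 higher. Of 10 limb and lateral plate factors tested 2 were lower and 1 higher, and of 5 neural genes 2 were lower and 0 higher. Dmrt2 had 3.93 and 6.80 CPM in KO and 2.32 and 1.79 in WT Pax1-positive cells, against 11.0 and 16.2 in KO and 12.0 and 30.4 in WT Pax1-negative cells (log2 fold -1.96 ± 0.396, edgeR adjusted p = 0.00237). Tnnt1, a slow muscle troponin, was lower as well (-1.60 ± 0.287). Pax3 (-1.90 ± 0.310, edgeR adjusted p = 0.00170) no longer passed without the 35 cells chosen by Zic1 and Col2a1 alone (-1.0, edgeR adjusted p = 0.317).

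Wnt4 had 2.95 and 1.70 CPM in KO and 0 and 1.79 in WT Pax1-positive cells, against 58.2 and 34.8 in KO and 32.9 and 52.3 in WT Pax1-negative cells (log2 fold -4.63 ± 0.338, edgeR adjusted p = 5.05e-11), and -3.73 without the 35 cells. Wnt4 was thus low in the Pax1-positive cells of each of the 4 libraries. Sox2 (-2.50 ± 0.254) no longer passed without the 35 cells (-1.27, edgeR adjusted p = 0.0617). Rgs5, a gene of pericytes, had 2.46 to 11.9 in Pax1-positive and 15.0 to 47.6 in Pax1-negative cells (-2.54 ± 0.289). Msx1 was lower (-2.03 ± 0.295) but no longer passed without the 35 cells (-0.77, edgeR adjusted p = 0.162). Car3, a muscle carbonic anhydrase (-3.49 ± 0.5), the endothelin receptor Ednrb (-2.36 ± 0.289) and Gas1 (-0.76 ± 0.0993) were lower as well. No gene of the S phase, mitosis or immediate early lists passed in either direction.

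**Figure D4:**
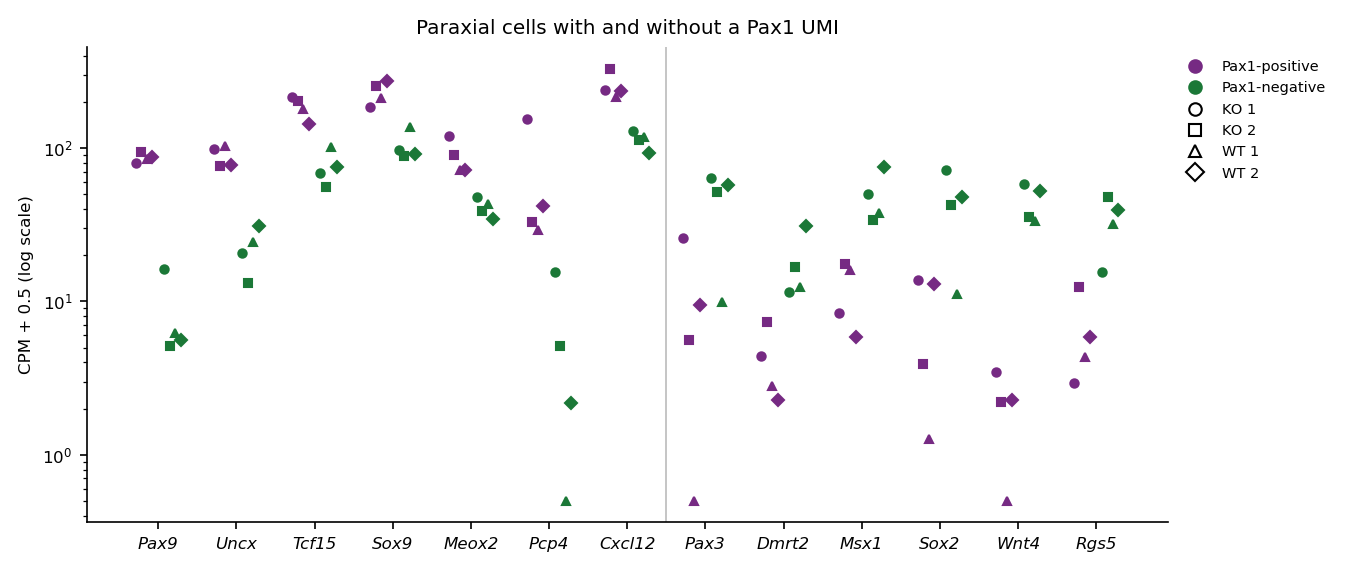
CPM (plus 0.5, log scale) in summed paraxial cells with and without a Pax1 UMI, with 1 symbol per library. The 7 genes left of the line are higher in Pax1-positive cells of each library and the 6 right of it lower.

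Values of the planned subgroups are given without a test. In cells with Pax1 and no Foxd1, Tcf15 had 341 and 379 CPM in KO and 88.3 and 379 in WT, against 64.2 and 29.5 in KO and 99.1 and 64.5 in WT cells with Foxd1 and no Pax1. Cxcl12 had 75.2 and 40.3 in KO and 72.9 and 84.3 in WT cells with Pax1 alone, against 179 and 177 in KO and 134 and 136 in WT cells with Foxd1 alone. Tcf15 overlapped between the subgroups through WT replicate 1, and Cxcl12 did not overlap. Cxcl12 was lower in cells with Pax1 alone, the opposite of its direction between Pax1-positive and Pax1-negative cells.

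The genotype contrast within the paraxial cells addresses whether loss of miR-223 changed them. Of 9873 genes, 2 (0.0203%) were higher in KO and 0 lower at an adjusted p under 0.05, and DESeq2's Wald test called 5. An unadjusted p under 0.05 was found for 214, a smaller share than the 0.05 expected where no gene changes. The 2 genes called by edgeR are contractile genes. Actc1 had 52.3 and 92.4 CPM in KO and 1.39 and 6.08 in WT (log2 fold 4.64 ± 0.536, edgeR adjusted p = 0.0423). Tagln, transgelin of smooth muscle, had 96.2 and 134 in KO and 28.9 and 13.9 in WT (2.34 ± 0.289, edgeR adjusted p = 0.0202). With same-numbered replicates as a block, Actc1 passed the test and Tagln did not.

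Both differences lay largely in a few cells. In KO replicate 1, 189 of 225 Actc1 UMIs were in 3 of 198 cells, and in KO replicate 2, 129 of 134 were in 1 of 86 cells. The WT replicates had 4 and 7 Actc1 UMIs in all. For Tagln, 3 cells held 293 of 414 UMIs in KO replicate 1 and 1 cell 164 of 195 in KO replicate 2, against totals of 83 and 16 in the WT replicates. Without the 3 richest cells of each library, Tagln was at 28.1 and 15.2 CPM in KO and 8.69 and 5.21 in WT, and Actc1 at 8.37 and 1.38 in KO and 0.348 and 0 in WT. For Tagln both KO libraries thus stayed above the WT libraries, at lower levels. For Actc1 the UMIs left were 36 and 2 in KO and 1 and 0 in WT. KO replicate 1 thus stayed above WT for Actc1, and KO replicate 2 had too few UMIs to tell. Acta2, smooth muscle actin, was concentrated in the same way, with 456 of 458 UMIs of KO replicate 2 in 1 cell. With at least 3 of the 5 markers required, 0 genes were called, with Actc1 at 4.31 and Tagln at 2.06 (edgeR adjusted p = 0.9998 for both). Without WT replicate 1, Actc1 did not pass (edgeR adjusted p = 0.0697).

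**Figure D5:**
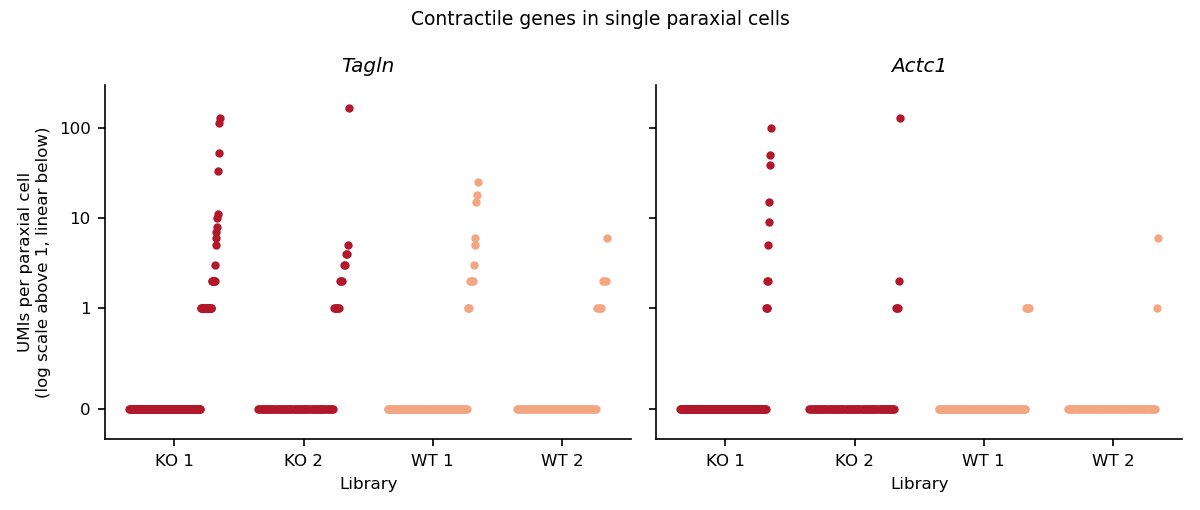
UMIs of Tagln and Actc1 in each paraxial cell, ordered within its library (log scale above 1, linear below). Most cells are at 0, and the KO totals of 414 and 195 for Tagln and 225 and 134 for Actc1 come mainly from the top few points.

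Of genes with the smallest unadjusted p among those not called, Wdfy1 had 22.5 and 27.6 CPM in KO and 6.95 and 3.47 in WT paraxial cells (log2 fold 2.13 ± 0.373, edgeR adjusted p = 0.145). Its level was 20.9 and 27.5 in KO and 4.39 and 2.46 in WT Prrx1 cells, and 49.9 and 51.9 in KO and 9.27 and 9.87 in WT Cdh5-positive cells, so the KO libraries were above the WT libraries in all 3 classes. On the lower side were Emx2, a homeobox factor of the urogenital system, with 2.56 and 2.76 in KO and 18.4 and 15.6 in WT (-2.67 ± 0.420, edgeR adjusted p = 0.0833), Tbx3 (-1.89 ± 0.328, edgeR adjusted p = 0.145) and Itm2a (-1.13 ± 0.207, edgeR adjusted p = 0.162). For each gene, the 3 richest of 65 cells in WT replicate 2 held most UMIs: 15 of 18, 20 of 28 and 176 of 267. Without the 3 richest cells of each library, the Emx2 UMIs left were 4 and 0 in KO and 30 and 3 in WT. Tbx3 was then at 4.42 and 4.14 CPM in KO and 18.4 and 6.95 in WT. Itm2a was at 62 and 74.5 in KO and 108 and 79 in WT. WT thus stayed above KO for Tbx3 and, narrowly in replicate 2, for Itm2a. WT replicate 2 had too few Emx2 UMIs to tell. Wdfy1 is also on a list of 13 genes that earlier work on these same libraries had reported as changed in endothelium, which is not independent evidence. Of the others on it, Rnaset2b (-2.45 ± 0.734), Zfp945 (-0.87 ± 0.329) and Mxra7 (-0.07 ± 0.285) had an edgeR adjusted p of 0.999, and 9 more were too low to test.

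No described target of miR-223 was called. Of 29 genes 27 were tested, 0 were higher and 0 lower, and 9 had positive estimates, with a median log2 fold of -0.12 against -0.0033 over all genes. None of the 18 tested sclerotome and somite factors was called, with a median of -0.02, nor any of the 31 tested Hox genes, with a median of 0.18. In simulated counts for this contrast, the test found 46 of 100 genes changed by a log2 fold of 1. It found 88 of 100 changed by a log2 fold of 2. Smaller changes were not simulated, so a list without calls does not show that its genes were unchanged. The blood list was at 1342 CPM in KO replicate 2 against 8.13 to 150 in the other 3 libraries, from Pf4, a platelet factor, with 1792 of its 1830 UMIs in 1 cell.

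Whether a genotype difference was particular to paraxial cells was tested as the KO effect in them minus the KO effect in Prrx1 mesenchyme. Of 10192 genes, 0 were called in either direction by edgeR or DESeq2. An unadjusted p under 0.05 was found for 337, again a smaller share than 0.05. A block for same-numbered replicates gave 41 called genes. Tagln (1.17 ± 1.76) and Actc1 (-0.47 ± 1.70) had wide errors in the test without that block. The smallest unadjusted p values were those of Hand1 (-3.87 ± 0.714, edgeR adjusted p = 0.147), Tbx3 (-1.69 ± 0.317, edgeR adjusted p = 0.147) and Nrgn (5.27 ± 1.06, edgeR adjusted p = 0.202), the last from 35.9 CPM in KO replicate 2 paraxial cells.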

How the data were processed

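The deposited files hold UMI counts per gene and cell barcode, made by the authors with Cell Ranger 3.1.0, per the file headers. Seurat 4 is named in the submitters' processing notes without a role. Aligner settings, genome build, annotation and strand use: not given in the sources used here. Files held 31521 barcodes and 31053 genes, with 95158639 to 181682389 UMIs per library. A cell was retained if it had 1000 or more genes and a mitochondrial share below 10%. Likely doublets, ranked by likeness to simulated ones and marked at 0.8% per 1000 barcodes, stayed in, and removing them was an alternative.

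Sums of UMIs for each class in each library were tested with edgeR 4.0.16 (R 4.3.3, limma 3.58.1): TMM scaling, filterByExpr, robust quasi-likelihood fits and Benjamini-Hochberg adjustment over all genes tested, with a threshold of 0.05. Library was a block where classes of cells were compared, and no block was used between genotypes. The edgeR test gives no SE, so each SE is the absolute log2 fold divided by the square root of the F statistic. It is approximate, and the adjusted p does not follow from it alone. DESeq2 1.42.0 was an alternative, as were no filter on low counts, stricter cell rules, thinning to 5000 UMIs and leaving out each library. Shares were compared with an exact permutation test. Levels are CPM of the summed class, and intervals are Clopper-Pearson at 95% and cover counting error only. Where a count is 0, the share it allows is instead a floor of 3 counts over the cells. Simulated counts with known changes were used to test the fits. Python 3.11.15, numpy 2.4.6, scipy 1.17.1, pandas 2.3.3, scikit-learn 1.9.0 and matplotlib 3.10.9 were used.

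Genes named are the 10 with the largest log2 fold in each direction that passed, with the same sign in every library and at least 100 UMIs, up to 4 per list that passed, and between genotypes the called genes or the 3 with the smallest p in a direction. Some list genes that did not pass are named for their role and were chosen after their values were seen. The members and lists were chosen with earlier results of these data known. Promoters and the miRNA are from RefSeq tables on GRCm38.p6. Some genes that the rule names are not reported here.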

Additional observations from a re-analysis of the deposited data

Results flagged for a closer look

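Nonagouti (a), a secreted melanocortin receptor antagonist, was lower in paraxial cells than in Prrx1 mesenchyme of each library, and 1 library lay apart. The log2 difference was -4.12 in KO replicate 1, against -2.90, -2.84 and -2.98 in the other 3 libraries. This was the single such value among 38 values, each of 1 gene in 1 comparison, examined in this way, where chance marks about 1 in 20.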

How the results depend on the processing

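Between genotypes, 2 genes were called. DESeq2's Wald test called 5, no filter on low counts 32, and at least 3 markers or thinning to 5000 UMIs 0. Leaving out doublets, cells under 2000 genes or the Zic1 and Col2a1 cells (an alternative added after seeing the data, as is leaving out Sox2-positive members) left 1. Leaving out 1 library gave 2 to 65, with 65 without KO replicate 1, 28 without KO replicate 2 and 14 without WT replicate 2. A lone library was then assumed to vary like the others. Actc1 lost its call without WT replicate 1 (edgeR adjusted p = 0.0697).

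Against Prrx1 mesenchyme, 962 genes became 417 with DESeq2's Wald test, 353 with thinning and 2285 with a Prrx1 class not limited by Cdh5 or Tubb3, and 716 to 775 without 1 library. With that wider class, Nid1 (-0.59), Gas1 (0.22), Gli3 (0.10), Ramp2 (-2.72), Plvap (-3.49), Mcm7 (0.12), Rhob (-0.10) and Itgb1 (-0.36) turned direction. Wt1 did with 3 markers (-0.48). Against all other cells, 7319 became 4225 with thinning and 6263 to 6736 without 1 library.

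Between Pax1-positive and Pax1-negative cells, 219 became 88 with DESeq2's Wald test, 434 with no filter, 62 with thinning and 115 to 290 without 1 library, the lowest without KO replicate 1. Sema6a (-0.32) and Stmn1 (0.012) turned with thinning and Hoxd11 (0.53) with 3 markers. The genotype effect in paraxial cells minus that in Prrx1 cells, with 0 genes called, gave 30 with no filter, 2 with 3 markers, 5 with thinning, 2 without Sox2-positive members and 2 to 54 without 1 library (16 without KO replicate 1, 54 without KO replicate 2, 2 without WT replicate 1, 28 without WT replicate 2). Tbx3 turned with 3 markers (0.039).

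The KO minus WT difference in the share of kept cells that are paraxial cells ran from -1.47 to 2.09 percentage points without 1 library, at -1.30 without KO replicate 1 and -1.47 without WT replicate 2. Mxra7 ran from -0.24 to 0.14 without 1 library and turned without KO replicate 1 (0.13), without WT replicate 1 (0.14), with thinning (0.12) and without Sox2-positive members (0.039). Of 2203 named gene results under alternatives, 17 turned direction. The labels give same-numbered replicates a shared number and nothing more, but in the counts they were alike in erythroid RNA. Erythroid genes in the other kept cells summed to 9439 and 9972 CPM in KO and WT replicate 1, against 1645 and 1195 in replicate 2. Hbb-y, an embryonic globin, was detected in 78.8% and 89.5% of members in KO and WT replicate 1, against 16.3% and 18.5% in replicate 2. A shared batch was not tested. The deviations of same-numbered replicates correlated at 0.131 (Pearson) and 0.0877 (Spearman) over 9873 genes. With a replicate block 2 genes were called, Actc1 (edgeR adjusted p = 0.0208) and not Tagln (0.218), and the difference of effects gave 41. The cause of these changes was not tested.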
